A study of Mus musculus with 15 samples.

Results

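*KEAP1* KO #3 and *KEAP1* KO #2 are clonal lines of LL2 cells, a mouse Lewis lung carcinoma line (LL2/Luc2), in which *Keap1* was knocked out with CRISPR. The comparison rests on 6 of the 15 samples of the series, 3 replicates of each clone, chosen by their labels, and on the 14652 of 35880 genes whose CPM (read counts scaled to a fixed total in each sample) summed to at least 3 over all 15 samples. The other 9 samples are the unedited parent line (LL2 WT), the other *Keap1* knockout clone (*KEAP1* KO #1) and an *Nfe2l2* knockout clone (*NRF2* KO), with 3 replicates each, and enter here as reference levels and for the shared estimate of the spread. All lines were grown in the same serum-containing medium, with no treatment named, and mRNA libraries were made from total RNA. Each knockout line is 1 clone grown from a single cell. The p-values therefore measure the spread between replicates of a line, pooled over the 5 lines, and not that between clones. A difference that came with the edit and one carried by the founder cell cannot be told apart. The paper calls the replicates biologic, and the labels do not say how the cultures were separated. The clone codes in the labels open with the same characters for *KEAP1* KO #2 and #3 and with others for #1, and the labels do not say what these stand for.

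KEAP1 is the substrate adaptor of a CUL3 ubiquitin ligase that marks the transcription factor NRF2, the product of *Nfe2l2*, for degradation. When KEAP1 is lost, NRF2 accumulates and activates genes for glutathione synthesis, drug conjugation, quinone reduction and NADPH supply, among which the alpha-class glutathione transferases are classical targets in rodent tissue. Setting 2 knockout clones side by side asks which genes differ between lines in which the same gene was targeted.

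Of the 10 pairs that can be formed from the 5 lines, *KEAP1* KO #3 and #2 had the highest Spearman correlation of log2(CPM + 0.1) across genes, with a mean of 0.980 over the 9 sample pairs (0.975 to 0.985), against 0.984 within *KEAP1* KO #2 and 0.981 within *KEAP1* KO #3. Genes are not independent replicates, and the value is a description. *Keap1* was low in both clones and did not pass the test between them. *KEAP1* KO #2 had 4.28, 5.01 and 7.29 CPM and *KEAP1* KO #3 3.78, 6.13 and 6.83 CPM, which overlap, against 23 ± 1.03 CPM (SD, n = 3) in LL2 WT. The interval of the difference was -0.46 to 0.47 on the log2 scale (95%, limma). *Nfe2l2* also overlapped, at 124, 122 and 124 CPM in *KEAP1* KO #2 compared with 115, 111 and 123 CPM in *KEAP1* KO #3 (log2 difference -0.08, interval -0.35 to 0.19).

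In all, 71 genes, 0.485% of those tested, differed between the clones, 38 higher (0.259%) and 33 lower (0.225%) in *KEAP1* KO #3. A gene was called when the Benjamini-Hochberg adjusted p of limma on log2(CPM + 0.1) was under 0.05 and the log2 difference over 1 in size, and differences are given throughout as *KEAP1* KO #3 minus *KEAP1* KO #2. The largest rises were *Gm48836*, *Cdh13* and *Cdh2* and the largest falls the pseudogenes *Pcna-ps2* and *Gm7984* and the zinc finger gene *Gm14139*. A further 41 genes passed on the adjusted p alone, 17 higher and 24 lower, and 1204 had an unadjusted p under 0.05. The median log2 difference over all genes tested was -0.01. The samples of the 2 clones did not overlap in 2492 genes (17.0%), 1202 higher (8.2%) and 1290 lower (8.8%), and the 71 called genes are among them. Of the replicate numbers, only number 3 was set apart by deviations that the 2 clones shared (r = 0.55). With the replicate number as a block 135 genes (0.921%) were called, 80 higher and 55 lower, among which all 71 remained. Against LL2 WT 2006 genes (13.7%) were called for *KEAP1* KO #2, 5.94% higher and 7.75% lower, and 1967 (13.4%) for *KEAP1* KO #3, 6.09% higher and 7.34% lower. Between the clones, the count of 71 fell to 45 without *KEAP1* KO #2 replicate 1 and to 42 without *KEAP1* KO #3 replicate 1.

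**Figure D1:**
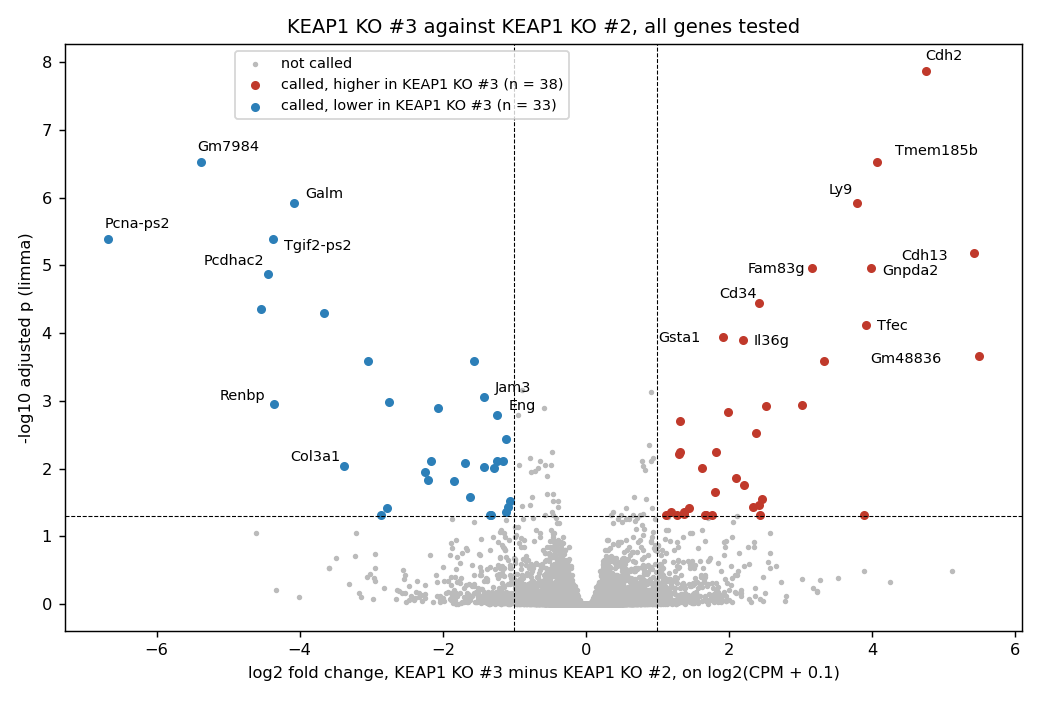
Each point is 1 of the 14652 genes tested, with the log2 difference of *KEAP1* KO #3 minus *KEAP1* KO #2 across and -log10 of the adjusted p upwards, and dashed lines at the thresholds. The 38 genes called higher (red) reach 5.49 and the 33 called lower (blue) reach -6.68, with *Cdh2* at the smallest adjusted p.

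Most of the 71 genes were called against the parent line in 1 clone only. A gene not called in the other clone could still differ from LL2 WT within the fold threshold. One example was *Chst2* in *KEAP1* KO #2 (-0.999, adjusted p = 4.47e-04, limma). Among the 38 genes higher in *KEAP1* KO #3, 17 were called lower than LL2 WT in *KEAP1* KO #2 and not called in *KEAP1* KO #3, 8 were called higher than LL2 WT in *KEAP1* KO #3 alone, 7 were called higher in both clones, 4 lower in both, and 2 in opposite directions. Among the 33 genes lower in *KEAP1* KO #3, 19 were called lower than LL2 WT in *KEAP1* KO #3 alone, 4 higher in *KEAP1* KO #2 alone, 5 lower in both, 1 higher in both, 2 in opposite directions and 2 in neither. The parent's mean lay between the 2 clones in 13 of the 38 and 11 of the 33, against 13.0% of all genes tested. The 71 genes were chosen for a gap between the clones, into which a parent's mean falls more readily, so the shares are not comparable. The 3 contrasts share their samples, so these counts describe where the parent's level lay and are not separate evidence. No run of 2 or more called genes of one direction followed each other along a chromosome among the genes tested, over the 70 called genes with a position in GENCODE M21.

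**Figure D2:**
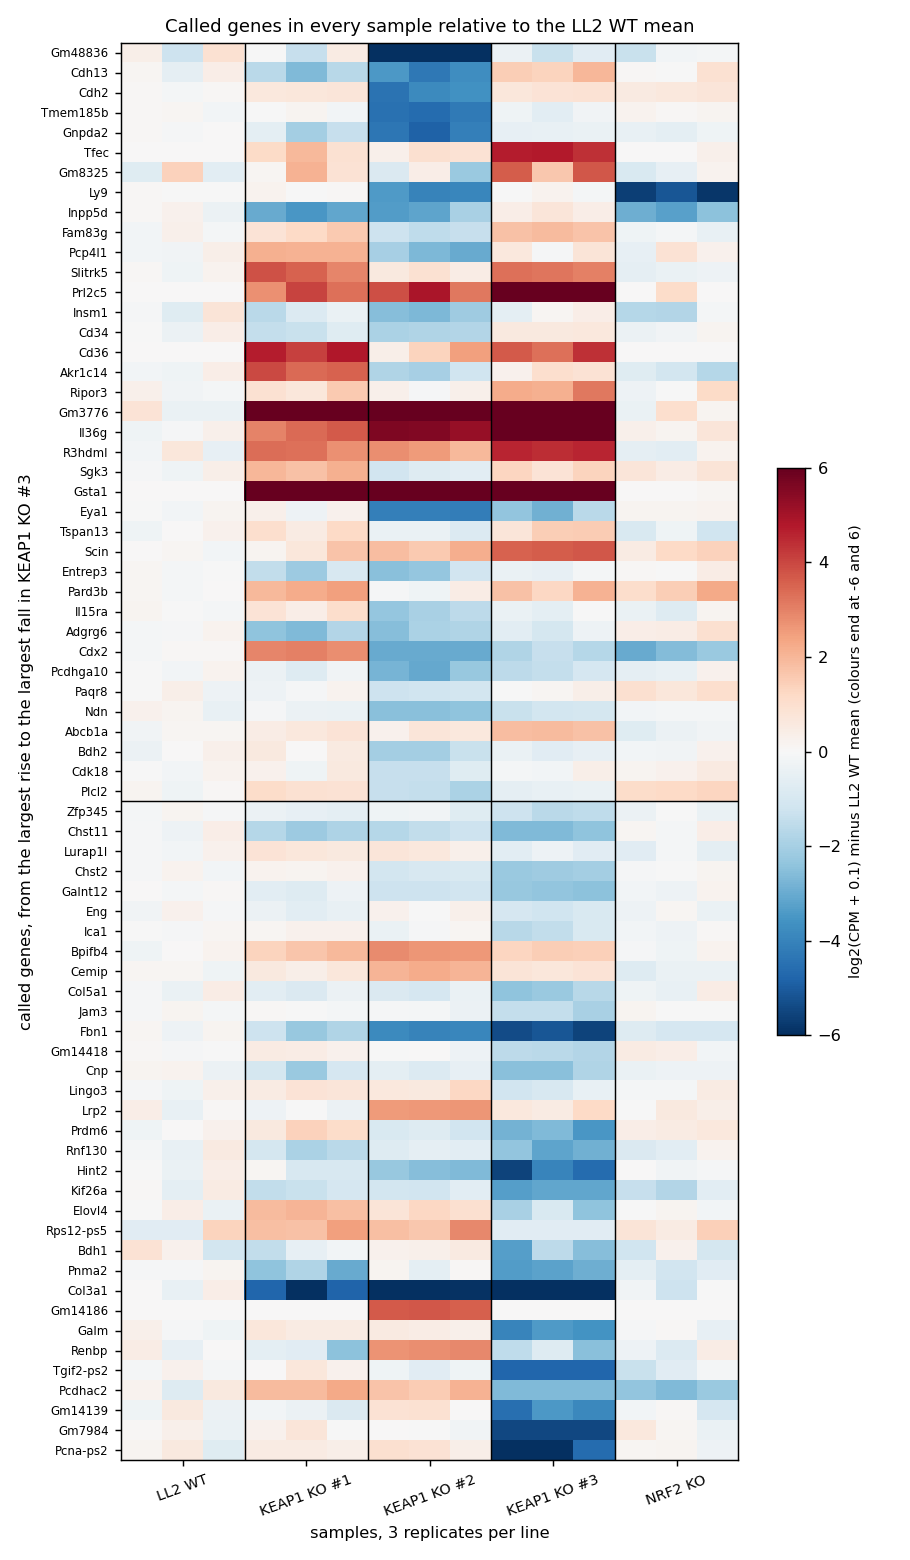
Each row is 1 of the 71 called genes and each column 1 of the 15 samples, coloured by log2(CPM + 0.1) minus the LL2 WT mean (colours end at -6 and 6). *Gm48836*, *Cdh2* and *Tmem185b* are dark blue in *KEAP1* KO #2 alone, *Tgif2-ps2*, *Gm7984* and *Pcna-ps2* in *KEAP1* KO #3 alone, and *Ly9* in *KEAP1* KO #2 and *NRF2* KO.

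Calls were compared over 18 alternative fits that changed the pseudocount, the filter, the scaling, the model or the samples. In every alternative that tested the gene, 21 of the 71 calls held, and no call changed its sign in any of the 18. A further 8 calls were lost only when the model held just the 6 samples of the 2 clones, a fit that lost 49 of the 71 and called 29 genes in all. With the replicate block on those 6 samples alone, 83 genes were called and 26 of the 71 calls were lost. When 1 of the 6 samples was left out, 33 of the 71 calls were lost in at least 1 of the 6 fits and 10 in all 6.

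*Cdh2*, which encodes N-cadherin, the calcium-dependent adhesion protein of mesenchymal and neural cells, stood at 0.221, 0.383 and 0.45 CPM in the 3 samples of *KEAP1* KO #2 and at 11, 11.8 and 12.4 CPM in those of *KEAP1* KO #3. The clones were far apart, and LL2 WT (6.73 ± 0.50 CPM), *KEAP1* KO #1 (10.8 CPM) and *NRF2* KO (10.4 CPM) all lay on the side of *KEAP1* KO #3. The log2 difference was 4.75 (95% interval 4.37 to 5.13, adjusted p = 1.33e-08, limma). *Cdh13* (chr8:118283733-119324921, GRCm38), which encodes T-cadherin, a cadherin held in the membrane by a lipid anchor, had 0.0782, 0 and 0.0507 CPM in *KEAP1* KO #2 compared with 5.32, 4.89 and 7.71 CPM in *KEAP1* KO #3. *KEAP1* KO #2 was at or under 0.1 CPM in every sample, a floor of about 3 reads at an average depth, so the level in *KEAP1* KO #3 was at least 59.7-fold higher (adjusted p = 6.59e-06), and LL2 WT (1.94 ± 0.637 CPM) and *KEAP1* KO #1 (0.429 CPM) lay between them. Both calls held under all 18 alternatives.

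*Pcdhac2*, a member of the alpha protocadherin cluster, had 1.97, 1.71 and 2.63 CPM in *KEAP1* KO #2 compared with 0 CPM in all 3 samples of *KEAP1* KO #3, at least 21-fold lower (adjusted p = 1.33e-05), with LL2 WT at 0.585 ± 0.297 CPM. *Jam3*, a junctional adhesion molecule of the immunoglobulin superfamily, was lower in *KEAP1* KO #3 at 1.86, 1.9 and 1.28 CPM against 4.93, 4.86 and 4.06 CPM (log2 difference -1.42, adjusted p = 8.81e-04), and LL2 WT (5.25 CPM) was close to *KEAP1* KO #2. *Pcdhga10*, of the gamma protocadherin cluster, was higher in *KEAP1* KO #3 at 1.37, 1.54 and 2.1 CPM against 0.545, 0.429 and 0.806 CPM (adjusted p = 0.0443), both under LL2 WT (4.34 CPM). Its call was lost in 5 of the 6 fits that left out 1 sample (adjusted p = 0.084 to 0.204) and held without *KEAP1* KO #2 replicate 3, and 99.4% of its 31-base stretches also occur in transcripts of other genes, so the share of its reads is uncertain. For *Pcdhac2* the same share was 48.4% and for *Jam3* 32.2%. Of the 24 tested cadherins and protocadherins on the list, 2 were called (8.33%, against 0.485% of all genes), *Cdh13* and *Pcdhga10*, both higher, with a median log2 difference of 0.01. *Cdh2* and *Pcdhac2* are not on that list. It was chosen with earlier results of these data known, so its share is not comparable with that of all genes.

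*Slitrk5*, a transmembrane protein of neurons that shapes synapses, had 1.3, 1.21 and 1.07 CPM in *KEAP1* KO #3, near the 1.5 CPM of *KEAP1* KO #1, while *KEAP1* KO #2 had 0.116, 0.172 and 0.0941 CPM (log2 difference 2.52, adjusted p = 0.00118), a call lost with a pseudocount of 1 CPM. The adhesion G protein-coupled receptor *Adgrg6* was higher in *KEAP1* KO #3 at 4.76, 3.53 and 5.84 CPM against 1.16, 1.89 and 2.01 CPM (adjusted p = 0.0378), a call that was lost in 5 of the 6 fits that left out 1 sample (adjusted p = 0.0572 to 0.188) and held without *KEAP1* KO #3 replicate 2. *Pard3b*, a polarity protein of tight junctions, had 1.1, 0.731 and 1.37 CPM against 0.236, 0.194 and 0.371 CPM (adjusted p = 0.0475), and its call was lost in each of the 6 fits that left out 1 sample (adjusted p = 0.0572 to 0.212). None of the 22 tested integrins and laminins was called (median -0.10), and of the 20 tested epithelial and mesenchymal regulators only *Cdh2* was. Of other mesenchymal genes *Vim* had a log2 difference of 0.06 (-0.32 to 0.44), *Zeb1* 0.14 (-0.32 to 0.61) and *Fn1* 0.02 (-1.19 to 1.24). *Snai2*, a transcription factor of mesenchymal cells, had 1.67, 2.09 and 3.15 CPM in *KEAP1* KO #2 compared with 3.73, 3.4 and 4.78 CPM in *KEAP1* KO #3, without overlap but within the fold threshold (0.79, interval 0.29 to 1.29, adjusted p = 0.218, or 0.0203 with the replicate block).

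**Figure D3:**
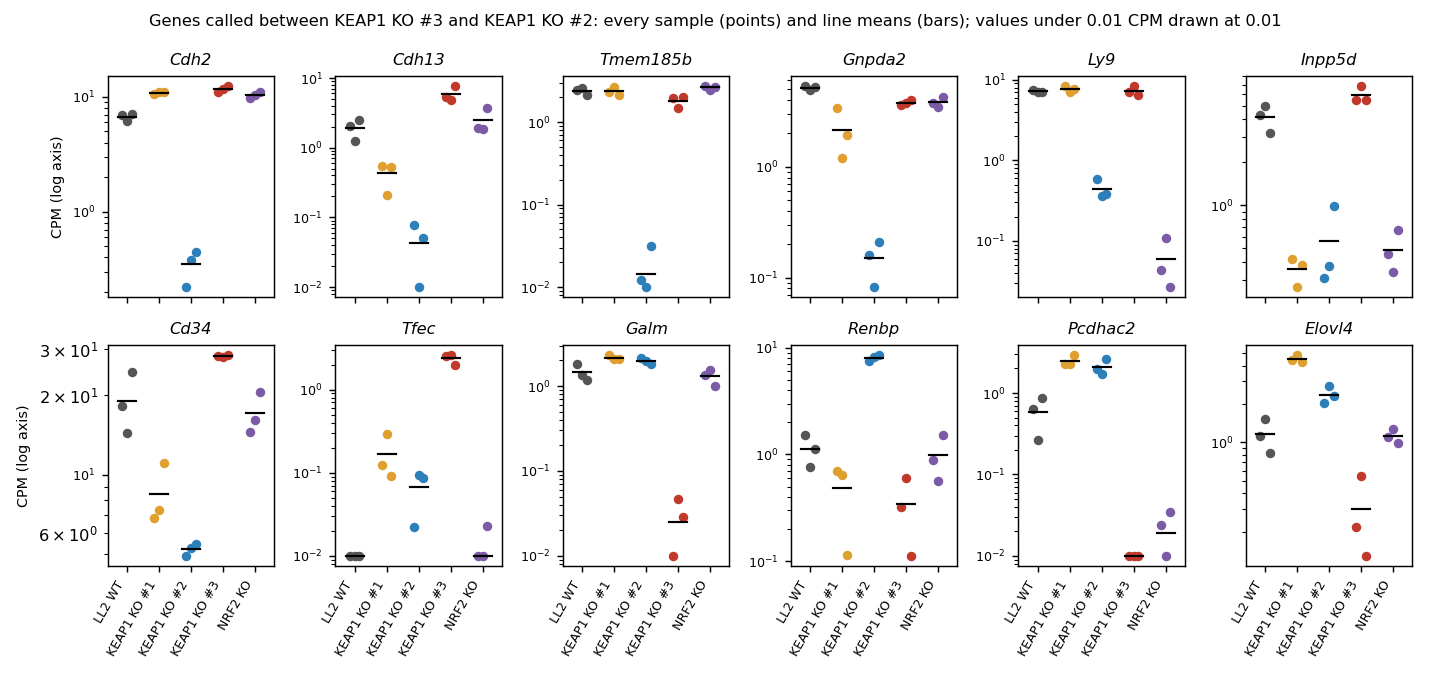
CPM on log axes of 12 called genes in the 15 samples, as points with a bar at the mean of each line's 3 replicates. *Cdh2*, *Tmem185b* and *Gnpda2* are low in *KEAP1* KO #2 alone, *Galm* is low in *KEAP1* KO #3 alone, *Renbp* is high in *KEAP1* KO #2 alone, and *Tfec* is high in *KEAP1* KO #3 alone.

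Alpha-class glutathione transferases, enzymes that conjugate glutathione to lipid peroxidation products and drugs, held 1 call, *Gsta1*, and the related *Gm3776* was called as well. *Gsta1* (chr9:78230656-78242684) and *Gm3776* (chr9:78257129-78269166) lie close together on chromosome 9 of GRCm38, and *Gsta2* (chr9:78331018-78355788) lies nearby on the other strand. The 250 bases before each start in RefSeq are shown because all 3 genes were higher in *KEAP1* KO #3 without overlap and resemble each other (RefSeq, GRCm38.p6, 5′ to 3′ on the gene's strand). They lie at chr9:78230419-78230668 (plus strand), chr9:78256879-78257128 (plus) and chr9:78347146-78347395 (minus), and capitals mark the longest stretch that all 3 share, 29 bases. The *Gsta2* window lies inside the span given above, which is from GENCODE M21, so the references differ on where this gene starts.
Gsta1: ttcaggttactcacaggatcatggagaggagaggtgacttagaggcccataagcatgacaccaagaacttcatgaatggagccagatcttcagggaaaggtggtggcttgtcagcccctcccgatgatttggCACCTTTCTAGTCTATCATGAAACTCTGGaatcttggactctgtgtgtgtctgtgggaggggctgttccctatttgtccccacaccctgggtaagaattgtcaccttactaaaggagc
Gm3776: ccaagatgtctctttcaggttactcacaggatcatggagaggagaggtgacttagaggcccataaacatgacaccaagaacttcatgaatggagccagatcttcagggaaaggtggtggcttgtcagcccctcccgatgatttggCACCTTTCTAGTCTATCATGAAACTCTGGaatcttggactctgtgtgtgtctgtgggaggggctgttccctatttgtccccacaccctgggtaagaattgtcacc
Gsta2: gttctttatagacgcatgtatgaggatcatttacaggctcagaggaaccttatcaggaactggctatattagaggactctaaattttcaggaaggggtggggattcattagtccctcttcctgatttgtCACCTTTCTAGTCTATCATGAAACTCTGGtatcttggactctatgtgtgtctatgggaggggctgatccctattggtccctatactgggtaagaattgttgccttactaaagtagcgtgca
Aligned end to end, *Gsta1* and *Gm3776* matched at 236 of 250 bases (94.4%), *Gsta1* and *Gsta2* at 184 (73.6%) and *Gm3776* and *Gsta2* at 177 (70.8%). The shared stretch begins 118 bases before the start of *Gsta1* and 105 before that of *Gm3776*, and this offset of the windows lowers their match. None of the 3 windows holds TGACNNNGC on either strand, the core letters of the antioxidant response element through which NRF2 binds, which 10.15% of the 27025 promoters of this length contain, and sequence further upstream was not examined.

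*Gsta1* stood at 149.9, 149 and 87.6 CPM in *KEAP1* KO #2 compared with 512, 526 and 395 CPM in *KEAP1* KO #3. The groups did not overlap, the log2 difference was 1.92 (interval 1.52 to 2.32, adjusted p = 1.13e-04), and the gene is listed at 0 in all 3 LL2 WT samples. *KEAP1* KO #1 had 111 ± 4.65 CPM, on the side of *KEAP1* KO #2. *Gm3776* had 87.2, 83.5 and 43.3 CPM against 326, 347 and 279.9 CPM (log2 difference 2.22, adjusted p = 0.0173), and its call was lost without *KEAP1* KO #2 replicate 3 (adjusted p = 0.0777) and without *KEAP1* KO #3 replicate 1 (adjusted p = 0.084) and without *KEAP1* KO #3 replicate 2 (adjusted p = 0.0925). The third gene, *Gsta2*, had 384, 384 and 317 CPM against 921, 911 and 797 CPM without overlap but did not pass the test (log2 difference 1.28, interval 0.56 to 2.00, adjusted p = 0.144). The spread behind this interval was pooled over the 5 lines, and *NRF2* KO had 0, 0 and 0.226 CPM of *Gsta2*, near the pseudocount of 0.1 CPM. Transcripts of *Gsta1* share 92.9% of their 31-base stretches with other genes, those of *Gm3776* 95.6% and those of *Gsta2* 60.7%, so how reads divide among the 3 is uncertain. Summed over the 3 genes, which does not depend on that division between them, the level was 562 ± 98.7 CPM in *KEAP1* KO #2, which compares with 1672 ± 174 CPM in *KEAP1* KO #3 (SD, n = 3), a ratio of 2.98, while *KEAP1* KO #1 had 391 ± 21.6 CPM and LL2 WT 0.0437 ± 0.0757 CPM.

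The rest of the family differed less. *Gsta3* had 160.4, 154 and 193 CPM in *KEAP1* KO #2 compared with 328, 306 and 445 CPM in *KEAP1* KO #3, without overlap but not called (1.07, interval 0.32 to 1.83, adjusted p = 0.296). *Gsta4*, whose product favours the lipid aldehyde 4-hydroxynonenal, had 682, 685 and 493 CPM against 804, 755 and 702 CPM (0.30, interval -0.11 to 0.70), and *Gsta5* was under 1 CPM in all 6 samples. Of the 5 tested genes of this list (*Gm3776* is not on it), 1 was called and the median log2 difference was 1.07, against -0.01 over all genes. Of the 17 other glutathione transferases none was called, with a median of 0.05.

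**Figure D4:**
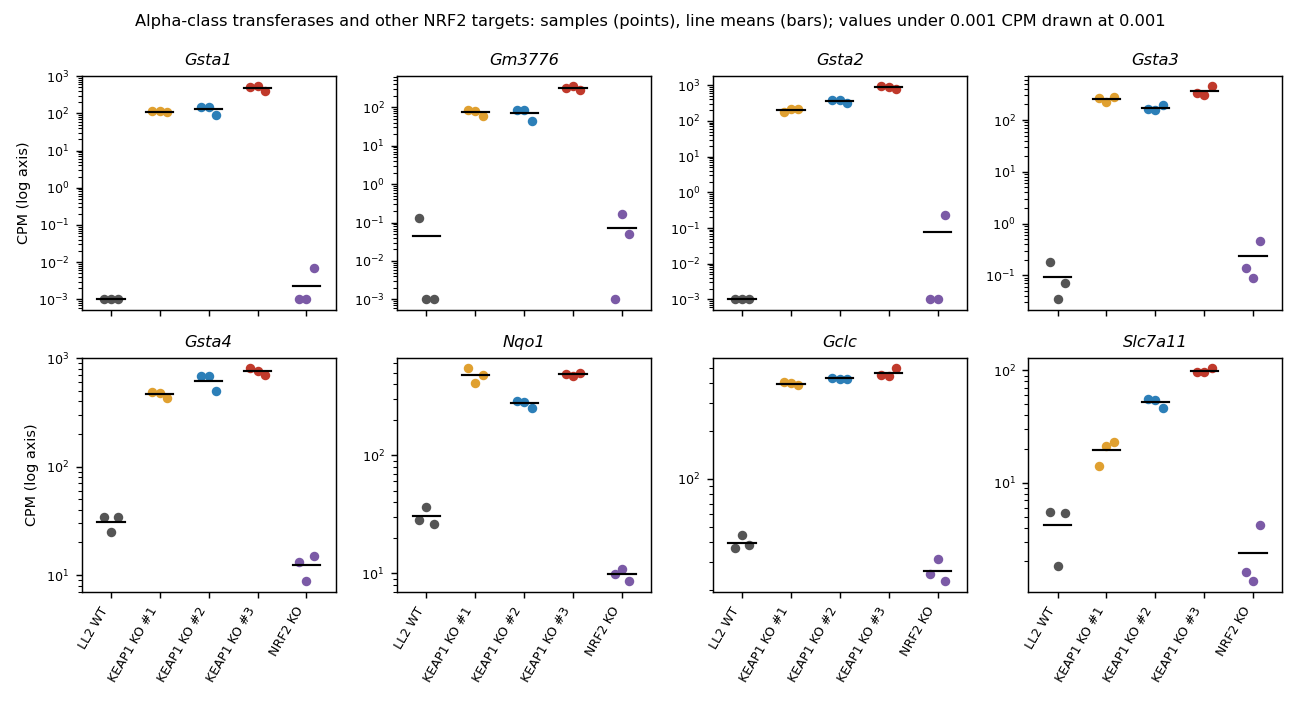
CPM on log axes of alpha-class glutathione transferases and other NRF2 targets in the 15 samples, as points with a bar at the mean of each line's 3 replicates. In *Gsta1*, *Gm3776*, *Gsta2* and *Gsta3* the 3 *KEAP1* KO #3 points lie above the 3 *KEAP1* KO #2 points, and in *Gclc* the 2 clones lie within an interval of -0.13 to 0.34 on the log2 scale.

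None of the 21 tested genes of glutathione synthesis and the thioredoxin system was called (median log2 difference 0.04), and none of the 8 tested NADPH-producing enzymes (median 0.13). *Gclc*, the catalytic subunit of the enzyme that limits glutathione synthesis, had 431, 426 and 426 CPM and 447, 442 and 494 CPM (0.11, interval -0.13 to 0.34), and *Txnrd1*, thioredoxin reductase, had a difference of -0.02 (interval -0.30 to 0.27). *Nqo1*, the quinone reductase often used to read out NRF2, was within the fold threshold although its adjusted p was 0.0105, with 289, 285 and 253 CPM in *KEAP1* KO #2 compared with 493, 468 and 502 CPM in *KEAP1* KO #3 (log2 difference 0.82). The cystine transporter gene *Slc7a11* had 55.9, 54.9 and 46.8 CPM against 97.8, 96.7 and 104 CPM (log2 difference 0.93, interval 0.00 to 1.85, adjusted p = 0.603). Its spread was pooled over all lines, among them LL2 WT with 5.54, 1.81 and 5.41 CPM. Among the 17 tested partners of the KEAP1-CUL3 ligase and of NRF2, none was called (median -0.01).

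*Akr1c14*, a reductase of steroid hormones, was the only call among the 29 tested aldo-keto reductases, aldehyde dehydrogenases and carbonyl reductases (median 0.05). It had 0.171, 0.144 and 0.321 CPM in *KEAP1* KO #2 compared with 1.06, 1.83 and 1.66 CPM in *KEAP1* KO #3 (log2 difference 2.38, adjusted p = 0.00297), with LL2 WT between them at 0.878 CPM. *KEAP1* KO #1 was above all of these at 11.9 ± 2.63 CPM, and the call was lost only with the 2 clones alone in the model. The intervals of *Akr1c13* (-0.33 to 1.67), *Akr1c18* (-0.71 to 0.74) and *Akr1c21* (-1.31 to 1.41) include 0. Of the glucuronosyltransferase genes *Ugt1a6a* had 17.9, 15.5 and 25.6 CPM against 27.4, 26.3 and 41.9 CPM (interval -0.19 to 1.58), and *Ugt1a6b* (-1.11 to 1.18) and *Ugt1a7c* (-0.55 to 1.83) were not called either.

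*Abcb1a*, one of the 2 mouse genes for the drug efflux pump P-glycoprotein, was the only call among 15 ABC transporters (median 0.20). It rose from 1.92, 2.65 and 2.46 CPM in *KEAP1* KO #2 to 5.85, 6.1 and 5.6 CPM in *KEAP1* KO #3 (log2 difference 1.29, adjusted p = 0.00601). *KEAP1* KO #1 (2.53 CPM) and LL2 WT (1.58 CPM) were on the side of *KEAP1* KO #2, and the call was lost with the 2 clones alone in the model and without replicate 3 of both clones. Its paralog *Abcb1b*, with which it shares 21.7% of its 31-base stretches, was not called (0.30, interval -0.49 to 1.1).

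On the lists of collagens and other matrix genes, only *Col3a1*, *Col5a1* and *Fbn1* were called, and all were lower in *KEAP1* KO #3. *Col3a1*, the chain of fibrillar collagen III, was already low in *KEAP1* KO #2 at 2.96, 2.29 and 6.89 CPM, and lower still in *KEAP1* KO #3 at 0.15, 0.129 and 0.695 CPM, against 436 ± 127 CPM in LL2 WT. The log2 difference between the clones was -3.38 (adjusted p = 0.00922), and the call was lost without *KEAP1* KO #3 replicate 1 (adjusted p = 0.0585) and without *KEAP1* KO #3 replicate 2 (adjusted p = 0.0595). Replicate 3 was the highest of its clone in both. *Col5a1*, a chain of collagen V that nucleates fibrils, had 31, 28.9 and 43.6 CPM against 10.7, 12 and 18.2 CPM (adjusted p = 0.0475), and the call was lost in 5 of the 6 fits that left out 1 sample (adjusted p = 0.109 to 0.227) and held without *KEAP1* KO #3 replicate 3. *Fbn1*, which encodes the microfibril protein fibrillin, had 1.22, 1.09 and 1.15 CPM against 0.353, 0.44 and 0.309 CPM and 19.1 ± 3.29 CPM in LL2 WT (log2 difference -1.43, adjusted p = 0.00933), and the call was lost without *KEAP1* KO #2 replicate 1 (adjusted p = 0.0557) and without *KEAP1* KO #3 replicate 1 (adjusted p = 0.052). Across the 21 tested collagen chains 2 were called (9.52%, against 0.485% of all genes) and the median was -0.29. Of these chains 8 lay above 0, and without overlap 1 was higher and 4 were lower. Across 37 tested matrix proteins, proteases and inhibitors 1 was called (2.70%) and the median was 0.11. Of these 24 lay above 0, and without overlap 6 were higher and 4 lower. Both lists were chosen with earlier results of these data known.

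The genes in this paragraph were set together after their values were seen, by their link to glycans, and are no tested group. *Chst2*, a sulfotransferase of N-acetylglucosamine, had 1.59, 1.77 and 1.82 CPM in *KEAP1* KO #2 compared with 0.691, 0.731 and 0.796 CPM in *KEAP1* KO #3 (log2 difference -1.12, adjusted p = 0.00369), and *Galnt12*, which starts mucin-type glycans, had 2.03, 2.04 and 2.16 CPM and 0.936, 0.882 and 0.81 CPM (-1.16, adjusted p = 0.00768). Both calls held in all 6 fits that left out 1 sample and were lost with a pseudocount of 0.5 or 1 CPM and with the 2 clones alone, with or without the block, and that of *Galnt12* also without replicate 3 of both clones. *Chst11*, which sulfates chondroitin, had 3.19, 3.81 and 4.47 CPM against 1.62, 1.64 and 1.94 CPM, and its call was lost in each of the 6 fits that left out 1 sample (adjusted p = 0.0579 to 0.153). *Cemip*, needed for the breakdown of hyaluronan, had 0.934, 1.06 and 0.933 CPM against 0.332, 0.306 and 0.349 CPM and 0.154 CPM in LL2 WT, and its call was lost in each of the 6 fits that left out 1 sample (adjusted p = 0.115 to 0.223).

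*Eng*, which encodes endoglin, a co-receptor for TGF-beta and BMP ligands, had 28.3, 23.5 and 29.8 CPM in *KEAP1* KO #2 compared with 11.6, 10.4 and 12.4 CPM in *KEAP1* KO #3. Samples of LL2 WT (23.9 ± 4.19 CPM) and *KEAP1* KO #1 (17 ± 1.48 CPM) lay above *KEAP1* KO #3 on average, the log2 difference between the clones was -1.24 (interval -1.59 to -0.89, adjusted p = 0.00162), and the call held under all 18 alternatives. It was the only call among 27 tested BMP, TGF-beta and SMAD target genes (median -0.02). Endoglin is also found on endothelial cells, as is the sialomucin *Cd34*, which went the other way. *Cd34* had 4.91, 5.27 and 5.46 CPM in *KEAP1* KO #2 compared with 28.3, 28.1 and 28.5 CPM in *KEAP1* KO #3 (log2 difference 2.42, adjusted p = 3.63e-05), above the 19 ± 5.1 CPM of LL2 WT on average, and also held under all 18. *KEAP1* KO #1 was nearer to *KEAP1* KO #2 in this gene, at 8.44 ± 2.3 CPM. Of the 7 endothelial markers, 4 were tested and none was called. Only 2 were at or under 0.1 CPM in all 6 samples, Cldn5 among them at 0. The summed level of the 7 was 6.49 to 9.07 CPM in *KEAP1* KO #2 and 6.58 to 8.55 CPM in *KEAP1* KO #3. Most of it came from *Pecam1*, at 4.81, 4.31 and 5.69 CPM and 4.46, 4.27 and 4.77 CPM.

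The lists of leukocyte markers, chemokines, interleukins, checkpoint ligands and interferon-stimulated genes held no call, and the next genes were taken from the 71 calls after their values were seen. *Il36g*, an IL-1 family cytokine of epithelial cells, had 22.8, 21.9 and 17.4 CPM in *KEAP1* KO #2 compared with 97.6, 98.3 and 88.7 CPM in *KEAP1* KO #3 (log2 difference 2.2, interval 1.73 to 2.66, adjusted p = 1.27e-04). All 3 *Keap1* clones lay above LL2 WT (0.373 ± 0.0875 CPM), with *KEAP1* KO #1 lowest at 4.74 ± 1.19 CPM. *Ly9*, a SLAM family receptor of lymphocytes, had 0.586, 0.357 and 0.384 CPM in *KEAP1* KO #2 compared with 7.08, 8.4 and 6.54 CPM in *KEAP1* KO #3 (log2 difference 3.79, adjusted p = 1.20e-06). LL2 WT (7.18 ± 0.307 CPM) and *KEAP1* KO #1 (7.71 CPM) were near *KEAP1* KO #3, while *NRF2* KO (0.0599 CPM) was lower than *KEAP1* KO #2. *Inpp5d*, the lipid phosphatase SHIP1 of blood cells, had 0.309, 0.374 and 0.994 CPM against 5.49, 6.87 and 5.47 CPM (log2 difference 3.33, adjusted p = 2.62e-04), and of the other lines LL2 WT was high (4.16 CPM) and *KEAP1* KO #1 (0.356) and *NRF2* KO (0.488) were low. The calls of *Il36g* and *Ly9* held under all 18 alternatives, and that of *Inpp5d* was lost only with the 2 clones alone in the model.

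*Il15ra*, the receptor chain that presents IL-15, had 0.914, 1.22 and 1.6 CPM in *KEAP1* KO #2 compared with 3.76, 3.35 and 4.88 CPM in *KEAP1* KO #3, against 5.01 CPM in LL2 WT (log2 difference 1.62, adjusted p = 0.00987), and the call was lost without *KEAP1* KO #2 replicate 1 (adjusted p = 0.0659). *Cd36*, a scavenger receptor for fatty acids, is listed at 0 in LL2 WT and had 0.027, 0.149 and 0.449 CPM against 1.2, 0.879 and 2.0 CPM (adjusted p = 0.0347), and the call was lost in 5 of the 6 fits that left out 1 sample (adjusted p = 0.0595 to 0.146) and held without *KEAP1* KO #2 replicate 3. None of 15 chemokines and colony-stimulating factors was called (median 0.48). *Cxcl1*, a chemokine that attracts neutrophils, had 15.4, 15.4 and 42.6 CPM and 30.5, 28.8 and 68.6 CPM (interval -0.60 to 2.31), and the related *Cxcl5* had 0.353, 0.474 and 1.59 CPM and 1.53, 1.43 and 4.79 CPM (log2 difference 1.60, interval 0.16 to 3.03, adjusted p = 0.511). With the replicate block *Cxcl5* was called (adjusted p = 0.0173), while *Cxcl1* stayed within the fold threshold (adjusted p = 0.0401). Neither the 12 tested interleukins and IL-6 family cytokines (median 0.00), the 19 checkpoint ligands and MHC class I genes (0.22) nor the 20 interferon-stimulated genes (-0.09) held a call. Of the 14 leukocyte markers 5 were tested and none was called, Adgre1 and Ncr1 were among those at 0 in all 6 samples, and the summed level was 33.3 to 48.6 CPM in *KEAP1* KO #2 and 41.0 to 63.2 CPM in *KEAP1* KO #3. The part of other cells in these values was not tested.

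*Tfec* and *Tmem185b* were each at or under 0.1 CPM in every *KEAP1* KO #2 sample and above 1 CPM in every *KEAP1* KO #3 sample. *Tfec*, a transcription factor of the MiT family known from macrophages, had 0.0222, 0.0936 and 0.0853 CPM and 2.56, 2.62 and 1.97 CPM, at least 23.8-fold higher (adjusted p = 7.58e-05), and is listed at 0 in LL2 WT. *Tmem185b*, a multi-pass membrane protein, had 0.0121, 0 and 0.0314 CPM and 1.98, 1.48 and 2.01 CPM, at least 18.2-fold higher (adjusted p = 2.97e-07), and was at 2.38 ± 0.246 CPM in LL2 WT. *KEAP1* KO #1 had 0.168 CPM of *Tfec* and 2.37 CPM of *Tmem185b*. The windows before their starts are shown because both genes were off in *KEAP1* KO #2 while their promoters differ in CG content (RefSeq, GRCm38.p6, 250 bases, 5′ to 3′). They lie at chr1:119525904-119526153 (plus strand) and chr6:16898442-16898691 (minus), and capitals mark CG, the pair of bases at which mammalian DNA is methylated.
Tmem185b: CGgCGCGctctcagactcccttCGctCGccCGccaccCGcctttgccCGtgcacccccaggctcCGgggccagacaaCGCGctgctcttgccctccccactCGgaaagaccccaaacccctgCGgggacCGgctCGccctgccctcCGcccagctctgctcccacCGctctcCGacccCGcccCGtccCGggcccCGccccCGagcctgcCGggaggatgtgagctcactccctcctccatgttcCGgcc
Tfec: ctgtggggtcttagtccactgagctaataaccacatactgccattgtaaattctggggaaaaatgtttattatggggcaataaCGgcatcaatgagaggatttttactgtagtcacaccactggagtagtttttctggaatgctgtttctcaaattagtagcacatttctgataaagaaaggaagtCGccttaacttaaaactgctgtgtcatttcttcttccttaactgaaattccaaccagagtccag
The window of *Tmem185b* holds 25 CG and that of *Tfec* 2, and the latter also holds 1 TGACNNNGC on the strand opposite to the one shown. Among the called genes 47 of 71 matched a promoter entry, with a median of 7 CG, and 7 of the 47 (14.89%) held TGACNNNGC, against a median of 16 CG and 11.83% over the 10126 tested genes with an entry. A match describes letters and not binding, and methylation was not measured.

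*Renbp*, the epimerase of N-acetylglucosamine also known as renin-binding protein, had 7.53, 8.11 and 8.58 CPM in *KEAP1* KO #2 compared with 0.323, 0.598 and 0.112 CPM in *KEAP1* KO #3 (log2 difference -4.36, adjusted p = 0.0011), with 1.14 ± 0.382 CPM in LL2 WT. *Galm*, galactose mutarotase, had 2.16, 1.96 and 1.83 CPM in *KEAP1* KO #2 compared with 0, 0.0467 and 0.0286 CPM in *KEAP1* KO #3, at least 19.9-fold lower (adjusted p = 1.20e-06). The other lines were near *KEAP1* KO #2, at 1.46 CPM in LL2 WT, 2.17 in *KEAP1* KO #1 and 1.3 in *NRF2* KO. *Gnpda2*, which turns glucosamine phosphate into fructose phosphate, had 0.16, 0.0824 and 0.208 CPM in *KEAP1* KO #2 compared with 3.64, 3.75 and 3.96 CPM in *KEAP1* KO #3 (log2 difference 3.99, adjusted p = 1.08e-05), and *Guf1*, which overlaps it by position, was not called (0.15, interval -0.22 to 0.51). All 3 calls held under the 18 alternatives.

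*Elovl4*, which builds very long-chain fatty acids, had 2.02, 2.77 and 2.29 CPM in *KEAP1* KO #2 compared with 0.216, 0.55 and 0.129 CPM in *KEAP1* KO #3 (log2 difference -2.76, adjusted p = 0.00103), with LL2 WT between them at 1.16 ± 0.358 CPM. *Bdh1*, the mitochondrial dehydrogenase of ketone bodies, was lower in *KEAP1* KO #3 (0, 0.232 and 0.0706 CPM against 1.11, 1.14 and 1.34 CPM), and its cytosolic relative *Bdh2* was higher (1.49, 1.21 and 1.37 CPM against 0.412, 0.407 and 0.738 CPM). The adjusted p was 0.0475 for *Bdh1*, a call that was lost in 5 of the 6 fits that left out 1 sample (adjusted p = 0.129 to 0.214) and held without *KEAP1* KO #3 replicate 2, and 0.0485 for *Bdh2*, a call that was lost in 5 of the 6 fits that left out 1 sample (adjusted p = 0.135 to 0.223) and held without *KEAP1* KO #2 replicate 3. *Paqr8*, a membrane receptor of progestins, rose from 1.65, 1.72 and 1.81 CPM to 3.97, 4.33 and 5.15 CPM (1.32, adjusted p = 0.00568) and stood near the 4.1 CPM of LL2 WT, a call lost with the 2 clones alone and without replicate 3 of both clones. *Sgk3*, a kinase that binds phosphoinositides, had 0.195, 0.284 and 0.327 CPM against 1.5, 1.05 and 1.55 CPM (1.99, adjusted p = 0.00147), a call lost with a pseudocount of 1 CPM, with the 2 clones alone and with the block on the 2 clones alone. *Hint2*, a mitochondrial hydrolase of nucleotides, had 0.85, 0.685 and 0.642 CPM against 0, 0.195 and 0.0886 CPM and 4.69 CPM in LL2 WT, and its call was lost without *KEAP1* KO #2 replicate 1 (adjusted p = 0.0911) and without *KEAP1* KO #2 replicate 2 (adjusted p = 0.0609) and without *KEAP1* KO #3 replicate 1 (adjusted p = 0.0584). Of 28 tested cholesterol and fatty acid synthesis genes none was called, the median was 0.26 and 13 were higher in *KEAP1* KO #3 without overlap, where 8.2% of all genes tested were.

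*Ndn*, which encodes necdin and is expressed from the paternal allele, rose from 1.9, 1.93 and 2.04 CPM in *KEAP1* KO #2 to 4.44, 5.3 and 5.41 CPM in *KEAP1* KO #3 (1.32, adjusted p = 0.0020), and was 11.6 ± 2.83 CPM in LL2 WT. It was the only call among 18 tested imprinted genes (median -0.13). *Eya1*, a phosphatase and transcription cofactor of organ development, had 0.373, 0.371 and 0.357 CPM against 1.45, 0.977 and 2.55 CPM (1.82, adjusted p = 0.00568) and 7.94 CPM in LL2 WT. *Prdm6*, a repressor of smooth muscle genes, was lower in *KEAP1* KO #3 at 0.287, 0.337 and 0.149 CPM against 1.38, 1.53 and 1.16 CPM (-2.06, adjusted p = 0.00128). The calls of *Eya1* and *Prdm6* were lost with a pseudocount of 1 CPM and with the 2 clones alone, and that of *Eya1* also with the block on the 2 clones alone. *Insm1*, a zinc finger factor of neuroendocrine cells, had 0.156, 0.133 and 0.248 CPM against 0.915, 1.51 and 1.9 CPM, and its call was lost in each of the 6 fits that left out 1 sample (adjusted p = 0.084 to 0.204). *Cdx2*, the homeobox factor of intestine, was 0 CPM in the *KEAP1* KO #2 samples and 0.131, 0.208 and 0.147 CPM in *KEAP1* KO #3, a level near the floor, against 6.0 ± 0.558 CPM in *KEAP1* KO #1, and the call was lost in each of the 6 fits that left out 1 sample (adjusted p = 0.0958 to 0.194). No call fell among the 26 tested Hox genes (median -0.13), although *Hoxd9* (12.4, 14.1 and 13.4 CPM against 7.05, 7.06 and 7.22 CPM, -0.89, adjusted p = 6.89e-04) and *Hoxd10* (-0.78, adjusted p = 0.00708) passed on the adjusted p and not on the fold.

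Pseudogenes held the largest difference of all. *Pcna-ps2* (chr19:9283380-9284160), a processed copy of the replication clamp gene *Pcna*, had 71.2, 66.7 and 46.5 CPM in *KEAP1* KO #2 compared with 0.273, 0.272 and 1.39 CPM in *KEAP1* KO #3 (log2 difference -6.68, interval -7.66 to -5.69, adjusted p = 4.04e-06). LL2 WT (39 CPM), *KEAP1* KO #1 (49.7) and *NRF2* KO (36.8) were near *KEAP1* KO #2. Its parent *Pcna* was not called, with 584, 602 and 448 CPM and 607, 589 and 428 CPM (interval -0.65 to 0.63). *Gm7984*, a copy of *Naa20*, had 4.38, 4.19 and 3.65 CPM in *KEAP1* KO #2 compared with 0 CPM in all 3 samples of *KEAP1* KO #3, at least 40.7-fold lower (adjusted p = 2.97e-07), and *Tgif2-ps2*, a copy of *Tgif2*, had 2.18, 1.62 and 2.19 CPM and 0 CPM in all 3, at least 20-fold lower (adjusted p = 4.04e-06). The parents *Naa20* (0.01, interval -0.43 to 0.45) and *Tgif2* (-0.03, interval -0.36 to 0.31) were not called. Transcripts of *Pcna-ps2* share 75.2% of their 31-base stretches with *Pcna*, those of *Gm7984* 67.5% with *Naa20* and those of *Tgif2-ps2* 80.9% with *Tgif2*, so reads of parent and copy can be exchanged. All 3 calls held under the 18 alternatives.

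In the other direction *Gm48836* was at 0 CPM in all 3 samples of *KEAP1* KO #2 and at 6.01, 2.99 and 4.75 CPM in *KEAP1* KO #3, at least 45.8-fold higher (adjusted p = 2.15e-04), with 9.28 ± 5.75 CPM in LL2 WT. All of its 31-base stretches (100%) occur in other genes, so its level cannot be assigned to 1 locus. *Gm8325*, a copy of *Ube2v1*, had 0.205, 0.646 and 0.0206 CPM against 6.8, 1.62 and 7.36 CPM (adjusted p = 0.0475), its call was lost in 4 of the 6 fits that left out 1 sample (adjusted p = 0.162 to 0.214) and held without *KEAP1* KO #2 replicate 2 and without *KEAP1* KO #3 replicate 2, and it shares 80.2% of its stretches with *Ube2v1*, which was not called (interval -0.36 to 0.17). *Gm14186*, an unprocessed pseudogene that shares none of its stretches, had 1.17, 1.21 and 1.11 CPM in *KEAP1* KO #2, is listed at 0 in every sample of the 4 other lines, and was at least 11.6-fold lower in *KEAP1* KO #3 (adjusted p = 5.03e-05). *Rps12-ps5*, a copy of a ribosomal protein gene, had 0.451, 0.39 and 1.09 CPM against 0 CPM in all 3 samples, and its call was lost in each of the 6 fits that left out 1 sample (adjusted p = 0.0808 to 0.151).

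Of the calls on chromosome 2, 3 are zinc finger genes that share sequence. *Gm14139* (chr2:150181755-150193279) had 4.13, 4.26 and 2.25 CPM in *KEAP1* KO #2 compared with 0, 0.116 and 0.0609 CPM in *KEAP1* KO #3 (-4.54, adjusted p = 4.44e-05). *Gm14418* (chr2:177387124-177398320) had 8.75, 9.09 and 7.32 CPM and 2.98, 2.82 and 2.53 CPM (-1.56, adjusted p = 2.62e-04), and both calls held under all 18 alternatives. *Zfp345* (chr2:150470991-150485091) had 2.35, 2.47 and 1.69 CPM and 1.14, 0.877 and 0.934 CPM (-1.06, adjusted p = 0.0305), and its call was lost in 5 of the 6 fits that left out 1 sample (adjusted p = 0.0584 to 0.169) and held without *KEAP1* KO #2 replicate 3. The 3 share 62.7% (*Gm14139*), 68.8% (*Gm14418*) and 51.3% (*Zfp345*) of their stretches with other genes, and *Gm14139* shares 47.8% with *Zfp345*. They were set together after their values were seen, and zinc finger genes as a group were not tested.

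The remaining calls belong to no group above. *Fam83g*, a scaffold of casein kinase, had 0.272, 0.21 and 0.238 CPM in *KEAP1* KO #2 compared with 2.9, 3.18 and 2.76 CPM in *KEAP1* KO #3 (3.16, adjusted p = 1.08e-05), with 0.788 ± 0.163 CPM in LL2 WT. *Pnma2*, of the paraneoplastic antigen family, had 2.28, 1.36 and 2.19 CPM and 0.114, 0.133 and 0.181 CPM (-3.05, adjusted p = 2.62e-04), and both calls held under all 18 alternatives. *Pcp4l1*, a small calmodulin-binding protein, had 0.141, 0.0473 and 0.0203 CPM and 1.38, 0.82 and 1.57 CPM (3.02, adjusted p = 0.00114), and *Ica1*, a protein of secretory granules, had 5.53, 6.86 and 7.74 CPM and 2.18, 2.53 and 3.75 CPM (-1.24, adjusted p = 0.00768). These last 2 calls were lost only with the 2 clones alone in the model. The ubiquitin ligase gene *Rnf130* had 3.5, 4.09 and 3.9 CPM against 1.07, 0.576 and 0.733 CPM (-2.17, adjusted p = 0.0076), and its call was lost with the 2 clones alone and without replicate 3 of both clones.

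Leaving out single samples ended the calls of several others, among them *Lingo3*, a leucine-rich repeat protein of neurons (3.17, 3.06 and 4.89 CPM against 0.83, 0.959 and 1.45 CPM), whose call was lost without *KEAP1* KO #3 replicate 1 (adjusted p = 0.0571), and *Bpifb4*, a lipid-binding secreted protein (6.76, 6.01 and 5.71 CPM against 2.29, 2.58 and 2.55 CPM), whose call was lost without *KEAP1* KO #2 replicate 1 (adjusted p = 0.0716) and without *KEAP1* KO #3 replicate 1 (adjusted p = 0.0584). The kinesin gene *Kif26a* had 0.371, 0.349 and 0.55 CPM against 0, 0.0145 and 0.0133 CPM, and its call was lost without *KEAP1* KO #2 replicate 1 (adjusted p = 0.0505) and without *KEAP1* KO #2 replicate 3 (adjusted p = 0.0572) and without *KEAP1* KO #3 replicate 1 (adjusted p = 0.0584). *Prl2c5*, of the prolactin family, is listed at 0 in LL2 WT and had 1.36, 2.92 and 0.804 CPM against 11, 7.7 and 7.65 CPM, and its call was lost in 5 of the 6 fits that left out 1 sample (adjusted p = 0.0683 to 0.14) and held without *KEAP1* KO #2 replicate 2. *Cnp*, the phosphodiesterase of myelin, had 4.58, 3.96 and 4.89 CPM against 1.16, 1.15 and 1.95 CPM, and its call was lost in 5 of the 6 fits that left out 1 sample (adjusted p = 0.0773 to 0.139) and held without *KEAP1* KO #3 replicate 3. The endocytic receptor *Lrp2* was higher in *KEAP1* KO #2 than in any other line, at 1.48, 1.56 and 1.63 CPM against 0.322, 0.279 and 0.518 CPM in *KEAP1* KO #3 and 0.182 CPM in LL2 WT, and its call was lost in 5 of the 6 fits that left out 1 sample (adjusted p = 0.0616 to 0.0895) and held without *KEAP1* KO #3 replicate 3. For *R3hdml*, a secreted cysteine-rich protein, *KEAP1* KO #2 had 1.25, 1.04 and 0.638 CPM and *KEAP1* KO #3 4.53, 4.11 and 4.52 CPM, and the call was lost in 5 of the 6 fits that left out 1 sample (adjusted p = 0.0534 to 0.0721) and held without *KEAP1* KO #2 replicate 1.

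A last group of 7 calls had adjusted p between 0.0221 and 0.0485 and lost their call in 5 or 6 of the 6 fits that left out 1 sample. Higher in *KEAP1* KO #3 were the tetraspanin *Tspan13* (0.556, 0.542 and 0.384 CPM against 1.33, 2.33 and 2.41 CPM), the actin-severing protein *Scin* (1.29, 1.01 and 1.63 CPM against 4.29, 4.64 and 4.86 CPM) and the kinase *Cdk18* (2.38, 2.37 and 3.75 CPM against 5.77, 5.67 and 8.14 CPM). *Entrep3* (0.855, 0.97 and 2.31 CPM against 4.0, 3.8 and 4.89 CPM), *Ripor3* (0.077, 0.0387 and 0.0819 CPM against 0.592, 0.531 and 1.22 CPM) and the phospholipase-like *Plcl2* (0.206, 0.199 and 0.114 CPM against 0.455, 0.482 and 0.515 CPM) were also higher. Lower was *Lurap1l* (2.42, 2.22 and 1.77 CPM against 0.869, 1.1 and 0.839 CPM). *Tspan13* kept its call without *KEAP1* KO #3 replicate 1, *Cdk18* without *KEAP1* KO #2 replicate 3 and *Entrep3* without *KEAP1* KO #2 replicate 3, and the highest adjusted p of these genes in such a fit was 0.217, for *Entrep3*.

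Genes that were off in 1 clone and on in the other were counted apart from the test. In 6 genes every *KEAP1* KO #3 sample was at or under 0.1 CPM and every *KEAP1* KO #2 sample at 1 CPM or more, and in 5 genes the reverse held. Of the first group *Galm*, *Gm14186*, *Gm7984*, *Pcdhac2* and *Tgif2-ps2* were called and *Gm44589* was not (3.08, 1.53 and 2.7 CPM in *KEAP1* KO #2, adjusted p = 0.0894). Of the second *Cdh13*, *Gm48836*, *Tfec* and *Tmem185b* were called and *Gm17387* was not (4.39, 2.16 and 4.01 CPM in *KEAP1* KO #3, adjusted p = 0.319). The LL2 WT mean reached 1 CPM in 3 of the 6 and in 4 of the 5. Without *KEAP1* KO #3 replicate 3 the counts were 10 and 8. Among genes at or under 0.1 CPM in all samples of 1 clone, the highest means in the other included ones that came from 1 or 2 samples. *Gm49386* had 4.43, 15.2 and 0 CPM in *KEAP1* KO #3 and *Tmed2b* 13.3, 0 and 0 CPM, and *Gm47893* had 6.95, 0 and 0 CPM in *KEAP1* KO #2. *Gm47421* and *Gm48238* had identical values, 0, 3.44 and 4.87 CPM in *KEAP1* KO #2. None of these 5 was called.

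Of the 31 gene lists examined, 9 held a call and 22 held none. They cover 564 tested genes, of which 11 (1.95%) were called, against 0.485% of all genes, and 60 of the 71 called genes are on no list. The lists were chosen with earlier results of these data known, so these shares are not comparable. Lists without a call beside those given above were Wnt genes (23 tested, median 0.19), growth factors and receptor tyrosine kinases (37, median 0.03), p53 targets and cell cycle genes (27, median -0.01), glycolysis and hypoxia genes (26, median 0.02), ATF4 response and serine genes (19, median 0.20) and prostaglandin genes (10, median -0.05). *Ptgs2*, the inducible cyclooxygenase, had 209, 210 and 232 CPM and 225, 216 and 260.1 CPM (interval -0.69 to 0.90), and the growth factor gene *Fgf7* passed on the adjusted p but not on the fold (57.4, 53 and 44.3 CPM against 93.2, 94.2 and 80.4 CPM, 0.79, adjusted p = 0.00922). Of the 12 lung epithelial markers 4 were tested and 7 were at or under 0.1 CPM in all 6 samples, among them Sftpa1, Sftpd and Scgb1a1 at 0. *Hopx* was the highest of the 12, at 1.09, 1.53 and 2.13 CPM and 2.92, 2.35 and 2.43 CPM. Keratins *Krt8* (166, 165 and 186 CPM and 129.8, 130 and 152 CPM) and *Krt18* (395, 399 and 424 CPM and 406, 427 and 484 CPM) were present in both clones.

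Against a share of 0.485% over all genes, the called genes numbered 11 of 852 tested on chromosome 1 (1.29%, 10 higher and 1 lower in *KEAP1* KO #3), 4 of 349 on chromosome 18 (1.15%), 13 of 1158 on chromosome 2 (1.12%) and none of 566 on chromosome 15, and unevenness was not tested. Over 11520 genes with a mean of at least 1 CPM and a position, the median log2 difference of a chromosome ran from -0.16 (chromosome 12, 443 genes) and -0.13 (chromosome 4, 678 genes) to 0.12 (chromosome 16, 356 genes) and 0.15 (chromosome 10, 567 genes). On chromosome 10, 84.5% of genes lay above 0, against 47.8% of all. The 3 sample medians of each clone did not overlap on chromosomes 10, 13 and 16, where *KEAP1* KO #3 was higher, and on 4 and 12, where it was lower, out of 20. Against LL2 WT the chromosome 10 median was 0.09 in *KEAP1* KO #2 and 0.26 in *KEAP1* KO #3, and the chromosome 12 median 0.11 and -0.05. These are descriptions with no test, and DNA copy number was not measured.

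**Figure D5:**
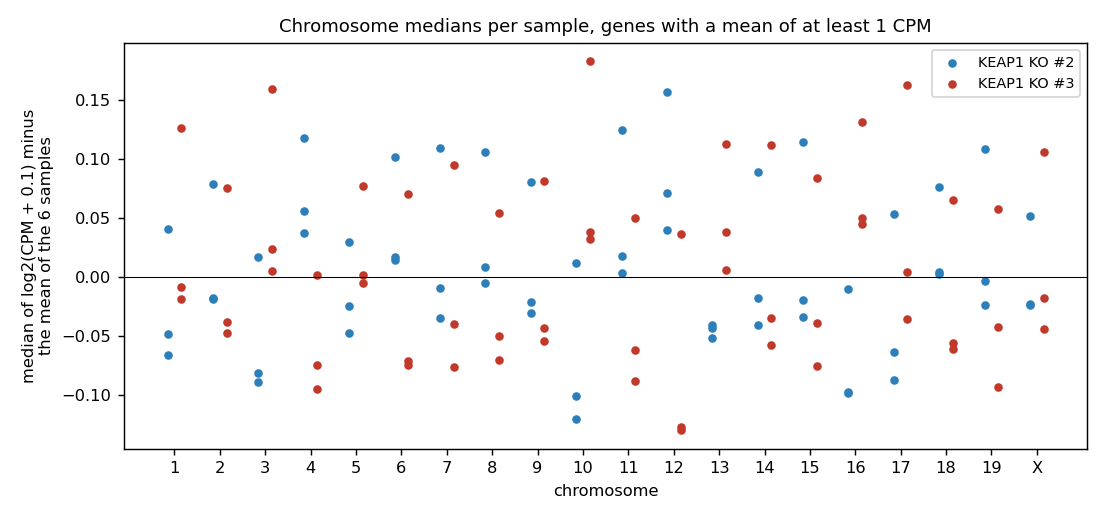
For each chromosome, the median over genes of log2(CPM + 0.1) minus the mean of the 6 samples, with 1 point per sample of *KEAP1* KO #2 (blue) and *KEAP1* KO #3 (red). On chromosomes 10, 13 and 16 all red points lie above the blue ones and on 4 and 12 all lie below.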

How the data were processed

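mRNA of 5 LL2 lines was sequenced from 3 replicates each. The authors deposited CPM per gene and sample, made with Kallisto, per the paper by pseudo-alignment to GRCm38.p6 transcripts, while the submitters' processing notes name GRCm39 and bcl2fastq 1.9.0. The deposited CPM are fractional, so reads cannot be recovered and sample depths remain unknown. The sums were 999412 to 999525 per sample, 1 entry without a symbol (0.0214% to 0.0491% of a sample) was left out, and no 2 samples were identical.

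Genes with a CPM sum of at least 3 entered limma 3.58.1 (R 4.3.3) on the log2(CPM + 0.1) scale (a mean per line over 15 samples, empirical Bayes with a trend, Benjamini-Hochberg over 14652 genes). The fit was tested on simulated data. The pseudocount understates changes of low genes. Positions came from GENCODE M21 (14076 of the 14652 by symbol and 236 by a synonym), and shared sequence from its transcripts as stretches of 31 bases. Promoters came from RefSeq (GRCm38.p6, first window listed). Levels in CPM are not per length and are not compared between genes.

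Same-numbered replicates were taken as paired because their deviations correlated over 11676 genes, with r = 0.28, 0.13 and 0.55 for numbers 1, 2 and 3, each above 0.1. Numbers 1 and 2 also correlated across (r = 0.27 and 0.14), and number 3 was negative with both (-0.43 to -0.20), so the values set only number 3 apart. The count with the replicate block stands beside that without it.

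Named were the 10 largest rises and falls reaching 2 CPM, *Keap1*, *Nfe2l2*, called list members, Gsta, Akr1c and Ugt1a genes, the 5 highest genes that were off in the other clone, and the 5 called genes of highest mean per direction, and the other called genes were added. The genes and lists were chosen with earlier results of these data known.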

Additional observations from a re-analysis of the deposited data

Results flagged for a closer look

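In 4 genes both clones were called against LL2 WT in opposite directions, and the difference between the clones was itself called (limma, adjusted over 14652 genes). *Cdh13* was -3.83 in *KEAP1* KO #2 (adjusted p = 1.29e-05) and 1.59 in *KEAP1* KO #3 (adjusted p = 0.00754) against LL2 WT on the log2 scale, a difference of 5.42. *Fam83g* was -1.37 (adjusted p = 9.14e-04) and 1.79 (adjusted p = 1.15e-04), a difference of 3.16. *Pcdhac2* was 1.77 (adjusted p = 0.00193) and -2.67 (adjusted p = 8.82e-05), a difference of -4.44. *Renbp* was 2.77 (adjusted p = 0.00183) and -1.59 (adjusted p = 0.0386), a difference of -4.36. All 3 contrasts share samples, and in each gene the 3 replicates of a clone lay together on 1 side of the other clone's.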

How the results depend on the processing

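The total of 71 calls moved to 29 (15 higher, 14 lower) with the 2 clones alone in the model, 135 (80 and 55) with the replicate block, which follows the pairing by number, and 40 (20 and 20) without replicate 3 of both clones. Leaving out 1 sample gave 42 to 62 calls, 22 to 36 higher and 18 to 39 lower, and higher calls numbered 22 without *KEAP1* KO #2 replicate 1 and 23 without *KEAP1* KO #3 replicate 2 or 3. With a pseudocount of 1 CPM 20 genes were lower. The other settings left the counts within 1.5 times, from 52 to 93, and quantile normalization gave 93. List members called numbered 11, 4 with the 2 clones alone, 7 without replicate 3 of both clones, and 7 to 11 when 1 sample was left out. Genes off in *KEAP1* KO #3 numbered 10 when 0.5 CPM counted as on in the other clone and 1 when 2 CPM did, and 6 to 10 when 1 sample was left out. For *KEAP1* KO #2 the count was 3 with 2 CPM, and 5 to 8 when 1 sample was left out. The medians of chromosomes 10 and 12 kept their sign throughout.

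Among genes that were not called the sign could change between settings, and 5 of them are given here as examples. With quantile normalization *Keap1* was -0.031 and *Akr1c18* -0.020, and without replicate 3 of both clones *Akr1c18* was -0.19 and *Ugt1a6b* -0.30. When 1 sample was left out, the log2 difference ran from -0.16 to 0.26 (*Keap1*), -0.23 to 0.14 (*Akr1c18*), -0.54 to 0.66 (*Akr1c21*), -0.99 to 0.36 (*Gsta5*) and -0.39 to 0.33 (*Ugt1a6b*). The block on all 15 samples ended no call among the 71, and on the 2 clones alone it ended 26 and called 83. Depth per sample is unknown, so precision at low CPM cannot be stated, and the cause of these shifts was not tested.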

Other observations

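With the replicate number as a block, 64 further genes were called between the clones. Those named here were taken from the 64 after their values were seen. Among genes higher in *KEAP1* KO #3, the paired membrane proteins *Tmem176a* (6.68, 7.42 and 24.2 CPM against 23.7, 32.1 and 74.5 CPM, block adjusted p = 8.66e-04) and *Tmem176b* (17.9, 17.4 and 45.4 CPM against 53.3, 59.6 and 123 CPM, 3.51e-04) lay below their LL2 WT means of 79.9 and 126 CPM. The IL-33 receptor gene *Il1rl1* had 38.2, 38 and 23.6 CPM and 118, 109 and 78.3 CPM (block adjusted p = 0.0122), the inflammatory caspase *Casp4* 0.392, 0.431 and 0.516 CPM and 1.48, 1.22 and 2.64 CPM (0.0264), and the interferon regulatory factor *Irf5* 0.101, 0 and 0.297 CPM and 0.901, 0.264 and 1.39 CPM (0.0364). The tetraspanin *Tspan8* (8.66e-04) and the matrix protease *Adamts1* (6.46e-04) were higher too. Without the block the adjusted p (limma) was 0.245 (*Tmem176a*), 0.234 (*Tmem176b*), 0.0801 (*Il1rl1*) and 0.227 (*Casp4*). For *Irf5* it was 0.272, for *Tspan8* 0.238 and for *Adamts1* 0.177.

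Receptors of growth factor and Wnt signalling were split, with *Ror2* higher in *KEAP1* KO #3 at 0.609, 1.12 and 1.08 CPM against 0.201, 0.251 and 0.476 CPM (block adjusted p = 0.0206), and *Pdgfra* (2.0, 2.83 and 3.86 CPM against 6.65, 5.28 and 7.91 CPM, 0.0247) and *Ptk7* (2.27, 2.63 and 4.26 CPM against 5.57, 5.49 and 10.5 CPM, 0.00183) lower. The matrix protein gene *Fbln1* was lower at 1.23, 1.1 and 1.94 CPM against 2.68, 2.61 and 5.09 CPM (block adjusted p = 0.00321). Without the block the adjusted p of these 4 was 0.102 (*Ror2*), 0.372 (*Pdgfra*), 0.0801 (*Ptk7*) and 0.086 (*Fbln1*).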
